A study of Homo sapiens with 6 samples.

Results

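The genes described here are 8 messages of epidermal growth factor receptor (EGFR) signalling: the receptors EGFR, ERBB2 and ERBB3, the ligands AREG, EREG, TGFA and HBEGF, and the feedback inhibitor ERRFI1. They were taken by gene symbol from the expression tables, which hold 19942 symbols, and all 8 were found. The tables describe 6 RNA-seq libraries of HCT116, a human cell line established from a colorectal carcinoma. One kind of cell was parental HCT116 and the other was HCT116 resistant to 5-fluorouracil, a pyrimidine analogue used against colorectal cancer. Each kind was sequenced untransfected, with a control siRNA, or with an siRNA against EHMT2, which encodes G9a, an enzyme that methylates histone tails. There was 1 library in each of these 6 groups, so a difference between 2 libraries has no replicate check and is given without a p-value. One label names the untransfected resistant cells 5fu and the transfected resistant cells 5fuR, while the titles call both 5-FU resistant. The sources used here do not give the drug dose, whether drug was present at harvest, the number of resistant clones or the time after transfection.

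The ErbB receptors are membrane tyrosine kinases that signal in pairs. EGFR binds ligands of the EGF type, ERBB3 binds neuregulins and has little kinase activity of its own, and ERBB2 has no known soluble ligand and serves as the preferred partner of the others. The ligands are made as membrane precursors and are released by metalloproteases such as ADAM17. Signalling runs through RAS to the kinase ERK, which induces genes that damp the pathway, among them ERRFI1, whose product MIG6 binds and inhibits the EGFR kinase. Amphiregulin (AREG) and epiregulin (EREG) are low-affinity EGFR ligands that colorectal tumours often express.

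The values are FPKM, fragment numbers scaled to transcript length and to the size of the library, so levels of different genes can be set side by side. Summed over genes, a library held 360695 to 446143 FPKM, and 11240 to 11722 genes per library were at 1 or more. Depth in reads is unknown. EHMT2 itself was at 19.8, 31.7 and 8.58 FPKM in untransfected, control siRNA and EHMT2 siRNA parental cells, and at 27.3, 19.5 and 3.80 in resistant cells, so it was lowest in both libraries labelled as knockdown. Of 8 colorectal epithelial markers, 6 were at 1 FPKM or more in every library, while VIL1 and LGALS4 were listed at 0 in all of them. Summed endothelial markers reached at most 0.332 FPKM. Of 6 fibroblast markers only COL1A1 was above 0, at 3.35 to 9.79 FPKM. Of 5 leukocyte markers PTPRC and CD3E were at 0, and CD14 and LYZ reached at most 0.847 and 0.651. CD68 lay between 0.372 and 4.99. Row order differs between the untransfected tables and the siRNA tables, so any difference in how the 2 sets were handled and the effect of transfection cannot be told apart. In bulk RNA, a change in the share of cells that make a message and a change in its amount per cell cannot be told apart either.

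All 8 genes were expressed in every library, at very different levels. In untransfected parental cells the order from highest to lowest FPKM was AREG, ERRFI1, EREG, ERBB2, TGFA, EGFR, ERBB3 and HBEGF. In untransfected resistant cells it was ERRFI1, AREG, TGFA, EREG, EGFR, ERBB2, HBEGF and ERBB3. In this order several neighbours were too close to be ranked with 1 library, such as AREG (27.8) and TGFA (27.1). AREG in untransfected parental cells lay at percentile 98.8 of the genes at 1 FPKM or more in that library, and at percentile 80.5 in untransfected resistant cells. ERRFI1 stayed between percentiles 95.4 and 98.7 in all libraries. HBEGF lay between percentiles 15.7 and 38.9.

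**Figure D1:**
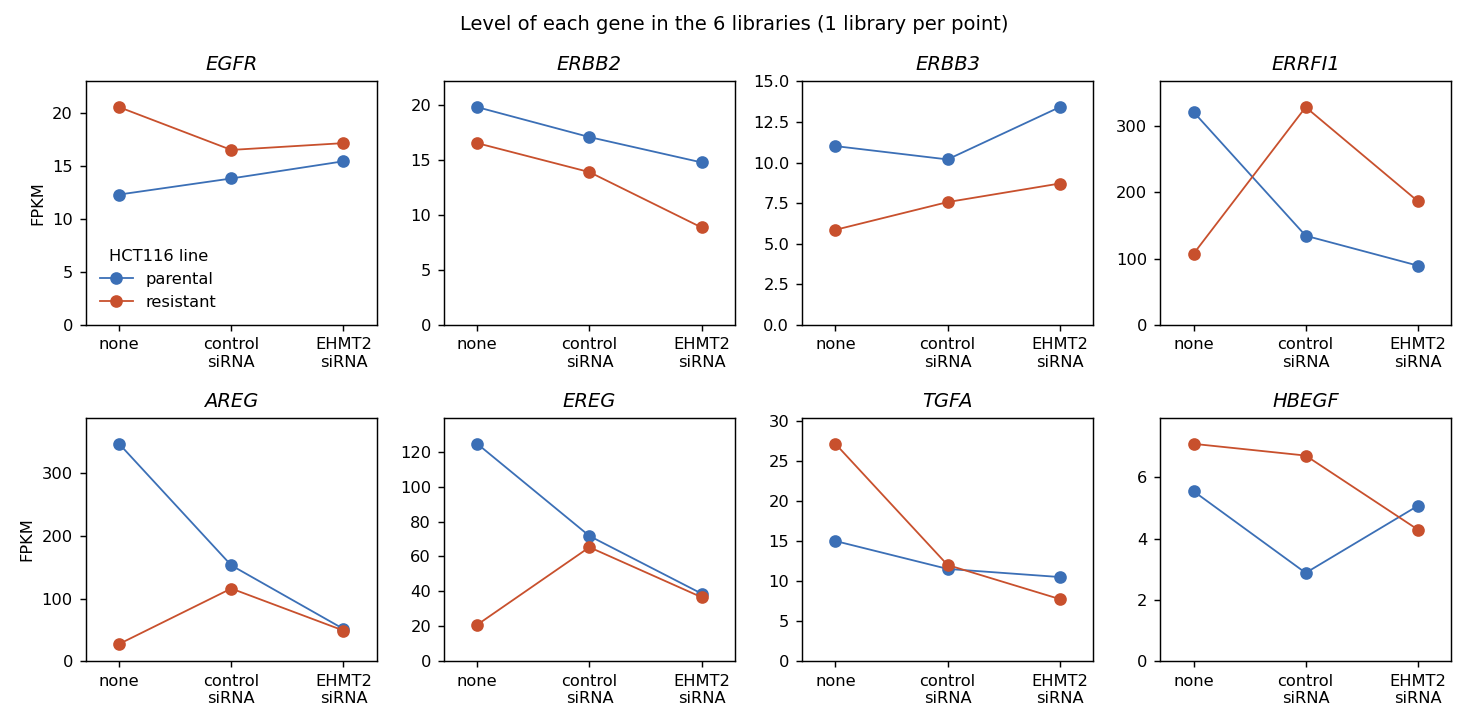
FPKM of each gene (vertical axes, linear from 0) by treatment (horizontal axes), with parental cells in blue and resistant cells in orange; each point is 1 library and lines only join points of a line. AREG and EREG were highest in untransfected parental cells (346 and 124) and lowest in untransfected resistant cells (27.8 and 21.0), while EGFR stayed between 12.3 and 20.5.

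EGFR varied least of the 8 genes, with a span of 0.70 between its lowest and highest library on the log2 scale after adding 1 to each FPKM, and ERBB2, ERBB3 and HBEGF spanned 1.08, 1.07 and 1.06. EGFR was at 12.3, 13.8 and 15.4 FPKM in untransfected, control siRNA and EHMT2 siRNA parental cells, and at 20.5, 16.5 and 17.1 in resistant cells. All 3 resistant libraries were above all 3 parental libraries, as for 2.89% of the 11521 genes at or above 1 FPKM in 3 or more libraries. The gap was largest without transfection, where resistant cells had 1.67 times the parental level, and smallest with EHMT2 siRNA, where they had 1.11 times. The separation of all libraries depends on the scaling. Its closest values were 16.5 (resistant, control siRNA) and 15.4 (parental, EHMT2 siRNA), in libraries that summed to 387256 and 360695 FPKM. Rescaling each library to the same FPKM sum would reverse the order of these values. EGFR spans chromosome 7 from 55019021 to 55211628 (GRCh38, GENCODE 29).

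ERBB2, on chromosome 17 from 39687914 to 39730426, was at 19.8, 17.1 and 14.8 FPKM in parental and 16.5, 13.9 and 8.86 in resistant cells, in the same order of treatments. It was lower in the resistant library under each treatment, and lower with EHMT2 siRNA than with control siRNA in both lines. The log2 ratio of untransfected resistant to parental cells was −0.25, but −0.015 after rescaling each library to the same FPKM sum. The library of resistant cells with EHMT2 siRNA held the lowest value, 63.7% of that with control siRNA, while in parental cells the share was 86.5%. ERBB2 shares 7.41% of its exonic bases with MIEN1 and PGAP3, so a small part of its reads could belong to these neighbours.

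ERBB3, on chromosome 12 from 56076799 to 56103505, was at 11.0, 10.2 and 13.4 FPKM in parental and 5.85, 7.56 and 8.70 in resistant cells. Every resistant library was below every parental library, as for 2.58% of those genes. The log2 ratios of resistant to parental cells, computed like all ratios here after adding 1 to each FPKM, were −0.81 untransfected, −0.39 with control siRNA and −0.57 with EHMT2 siRNA. Neither ERBB2 nor ERBB3 reached a 2-fold difference in any of the 7 pairs compared.

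The 3 receptors differed more in their proportions than in their sum. Their summed FPKM lay between 34.7 in resistant cells with EHMT2 siRNA and 43.6 in parental cells with EHMT2 siRNA. In untransfected cells the sum was 43.1 in parental and 42.9 in resistant cells. These sums became 37.6 and 44.4 when each library was rescaled to the same FPKM sum, which leaves the shares as they are. EGFR made up 28.5% of the receptor sum in parental and 47.8% in resistant untransfected cells, and ERBB3 25.5% and 13.6%. ERBB2 was the most abundant receptor message in untransfected and control siRNA parental cells, and EGFR in the other 4 libraries. In parental cells with EHMT2 siRNA, EGFR (15.4) and ERBB2 (14.8) were too close to be ranked with 1 library.

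Among the ligands, AREG and EREG moved furthest. AREG was at 346 FPKM in untransfected, 153 in control siRNA and 51.7 in EHMT2 siRNA parental cells, and at 27.8, 116 and 49.1 in resistant cells. The 2 untransfected libraries were thus the highest and the lowest of the 6, and the siRNA libraries of both lines lay between them. EREG followed the same course, with 124, 71.7 and 38.8 in parental and 21.0, 65.3 and 36.7 in resistant cells. Across the 6 libraries AREG spanned 3.59 on the log2 scale, more than 99.7% of the same 11521 genes, and EREG 2.51, more than 98.3%. The median span of those genes was 0.84.

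The AREG and EREG genes are neighbours on the plus strand of chromosome 4. EREG runs from 74365143 to 74388751 and AREG from 74445134 to 74455009, with 56382 bases between them, and neither shares exonic bases with another gene. Of the other EGF family ligands of this region, BTC (betacellulin) had between 1.05 and 2.72 FPKM, and EPGN (epigen) was listed at 0 in every library. The promoters of AREG and EREG are shown because these genes varied together, and that of ERRFI1 because its level crossed between the lines. Each sequence holds the 250 bases before the transcript start, 5′ to 3′ along the gene, from RefSeq on GRCh38.p14, which had entries for 7 of the 8 genes. Capitals mark matches on either strand to any of 4 motifs. The cAMP response element was searched as TGACGTCA. For the AP-1 site the letters were TGANTCA. For the box bound by the TBP protein they were TATAAA. For the box bound by Sp1 they were GGGCGG, called the GC box. No 2 of the matches shown overlap.
AREG, chr4:74444886-74445135, plus strand: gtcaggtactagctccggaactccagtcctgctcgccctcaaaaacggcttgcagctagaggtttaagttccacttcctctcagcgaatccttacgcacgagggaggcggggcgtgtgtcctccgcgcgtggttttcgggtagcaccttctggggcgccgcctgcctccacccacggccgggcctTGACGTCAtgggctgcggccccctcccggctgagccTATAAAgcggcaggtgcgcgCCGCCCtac
EREG, chr4:74364895-74365144, plus strand: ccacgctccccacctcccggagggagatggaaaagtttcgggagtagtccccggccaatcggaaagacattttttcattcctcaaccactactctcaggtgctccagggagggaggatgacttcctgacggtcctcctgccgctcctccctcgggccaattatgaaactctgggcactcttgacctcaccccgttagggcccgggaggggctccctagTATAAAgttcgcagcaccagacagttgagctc
ERRFI1, chr1:8026310-8026559, minus strand: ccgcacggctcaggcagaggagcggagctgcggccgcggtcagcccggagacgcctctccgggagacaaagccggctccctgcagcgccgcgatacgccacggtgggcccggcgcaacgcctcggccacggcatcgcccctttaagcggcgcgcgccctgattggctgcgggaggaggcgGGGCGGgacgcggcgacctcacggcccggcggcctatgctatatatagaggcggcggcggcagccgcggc

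The AREG window holds TGACGTCA with its first base 65 bases before the start, and the same motif occurs in 1.65% of 35116 windows of this length. TATAAA begins 29 bases before the start in AREG and 32 in EREG, and occurs in 10.7% of all windows. AP-1 letters, in 6.57% of windows, were not found in these 3 windows, and GGGCGG, in 42.6%, was found in AREG and ERRFI1. These are matches of letters and say nothing about binding.

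In untransfected cells AREG was 12.5-fold and EREG 5.93-fold lower in the resistant than in the parental library. The log2 ratios were −3.59 and −2.51, and only 11 and 31 of the 11731 genes tested in this pair, counting the genes themselves, had a ratio as low. A gene was tested in a pair when it had 1 FPKM or more in at least 1 of the 2 libraries, and counted as apart when its ratio reached 2-fold. AREG, EREG and ERRFI1 were the 3 of 8 members apart in this pair, all lower, where 7.4% of all tested genes were apart and 3.92% were lower. After rescaling to the same FPKM sum TGFA was apart too, and higher, with a ratio of 1.04. With siRNA the gap was small. AREG had ratios of −0.40 with control siRNA and −0.07 with EHMT2 siRNA, and EREG −0.13 and −0.08. With control siRNA 2.56% of all genes were apart and with EHMT2 siRNA 3.09%, and in both pairs ERRFI1 was the 1 member apart.

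The control siRNA libraries differed from the untransfected libraries in opposite directions in the 2 lines. In resistant cells AREG was 4.18-fold and EREG 3.11-fold higher with control siRNA than without transfection. In parental cells AREG was 2.26-fold and EREG 1.73-fold lower. Members 2-fold apart numbered 4 of 8 in resistant cells, where 8.18% of all tested genes were apart, and 2 of 8 in parental cells, where 3.03% were. The line ratio without transfection and these ratios use the same untransfected libraries, so they are not separate evidence.

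With EHMT2 siRNA both ligands were lower than with control siRNA in each line. AREG was at 42.3% of the control level in resistant cells (116 to 49.1 FPKM) and at 33.8% in parental cells (153 to 51.7). EREG was at 56.2% (65.3 to 36.7) and 54.1% (71.7 to 38.8). AREG was the 1 member apart in both knockdown pairs, where 9.26% of all tested genes were apart in resistant and 11% in parental cells. Genes at least 2-fold lower in both pairs made up 2.35% of 11545. At any size, 5 of the 8 members (ERBB2, AREG, EREG, TGFA and ERRFI1) were lower in both pairs, as were 36.3% of those genes. The EHMT2 siRNA level of AREG in resistant cells was still above that of untransfected resistant cells (27.8).

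Rescaling each library to the same FPKM sum would raise the median gene's ratio by 0.25 in the untransfected line pair, 0.18 in the parental transfection pair and 0.12 in the parental knockdown pair, and would move it by less than 0.1, up or down, in the others. It turned the sign of no AREG, EREG or ERRFI1 ratio.

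TGFA (transforming growth factor alpha, chromosome 2, 70447280 to 70554193) went another way. It was at 15.0, 11.5 and 10.5 FPKM in parental and 27.1, 12.0 and 7.77 in resistant cells. Untransfected resistant cells held the highest value, 1.81-fold above untransfected parental cells. With control siRNA the 2 lines were at 12.0 and 11.5, and resistant cells with EHMT2 siRNA had the lowest value. The drop from untransfected to control siRNA resistant cells was 2.26-fold, against 1.30-fold in parental cells.

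HBEGF (heparin-binding EGF-like growth factor, chromosome 5, 140332843 to 140346631) was the least abundant of the 4 member ligands in every library. It was at 5.54, 2.88 and 5.07 FPKM in parental and 7.09, 6.70 and 4.29 in resistant cells. Parental cells with control siRNA stood lowest. The ratio of EHMT2 siRNA to control siRNA was 0.64 in parental and −0.54 in resistant cells, so the lines had opposite signs. With control siRNA the resistant library had 2.33 times the parental FPKM, and the log2 ratio after adding 1 was 0.99, so the added 1 kept HBEGF below the 2-fold threshold. At a pseudocount of 0.1 the ratio was 1.19.

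**Figure D2:**
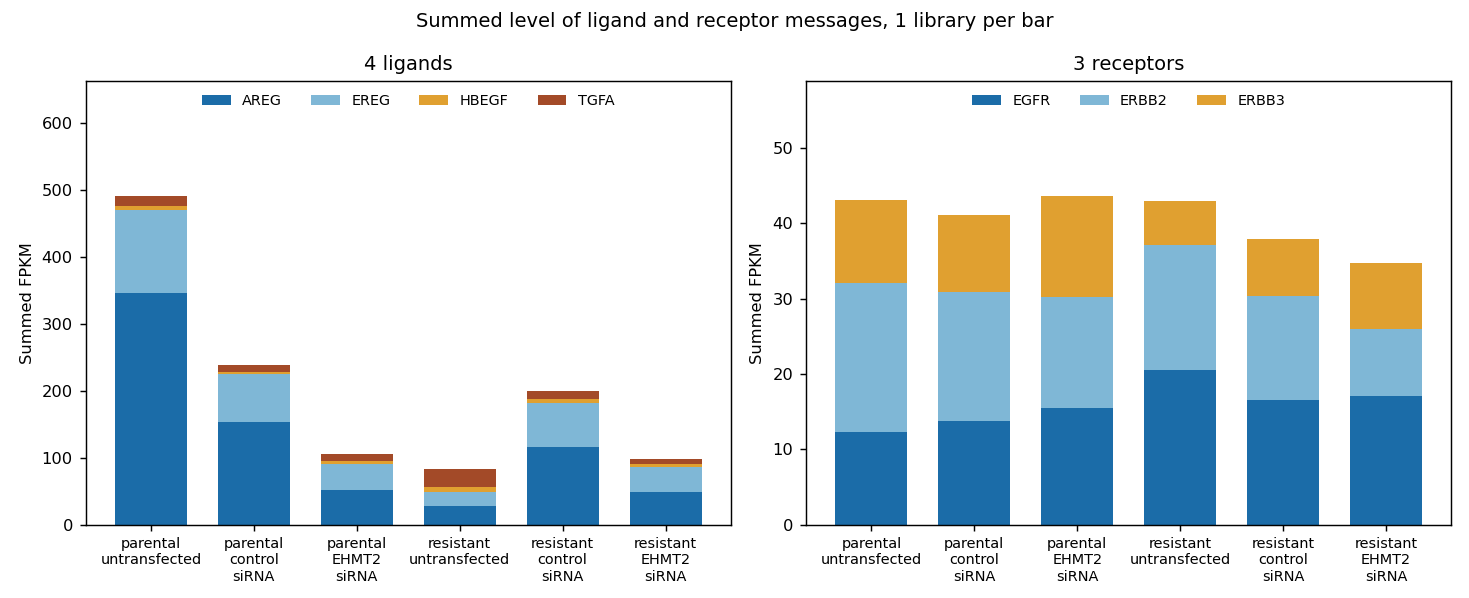
Summed FPKM (vertical axes, from 0) of the 4 ligands (left) and 3 receptors (right) in each library, with colours for the genes. Ligand sums ran from 83.0 in untransfected resistant to 491 in untransfected parental cells, and receptor sums from 34.7 to 43.6.

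The 4 ligands together reached 491 FPKM in parental cells without transfection. Control siRNA went with 239 and EHMT2 siRNA with 106. In resistant cells the sums were 83.0, 199.996 and 97.9. The sum was 5.92-fold lower in untransfected resistant than parental cells, and 1.19-fold and 1.08-fold lower with control and EHMT2 siRNA. EHMT2 siRNA went with a sum 2.04-fold lower in resistant and 2.25-fold lower in parental cells. The make-up moved as well. AREG made up 70.5% of the sum in untransfected parental cells, between 48.8% and 64.0% in the 4 siRNA libraries, and 33.5% in untransfected resistant cells, where TGFA made up 32.7%. The ratio of ligand to receptor messages was 11.4 in untransfected parental and 1.93 in untransfected resistant cells, and between 2.43 and 5.82 with siRNA.

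ERRFI1 (chromosome 1, 8004404 to 8026308) crossed between the lines. It was at 321, 134 and 89.3 FPKM in parental and 107, 329 and 187 in resistant cells. Untransfected resistant cells had 33.3% of the parental level, whereas with control siRNA they were 2.45-fold above and with EHMT2 siRNA 2.09-fold above. The log2 ratios were −1.58, 1.28 and 1.06. With EHMT2 siRNA it was at 56.8% of the control siRNA level in resistant and 66.4% in parental cells. It shares 3.70% of its exonic bases with the overlapping gene AL034417.4.

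**Figure D3:**
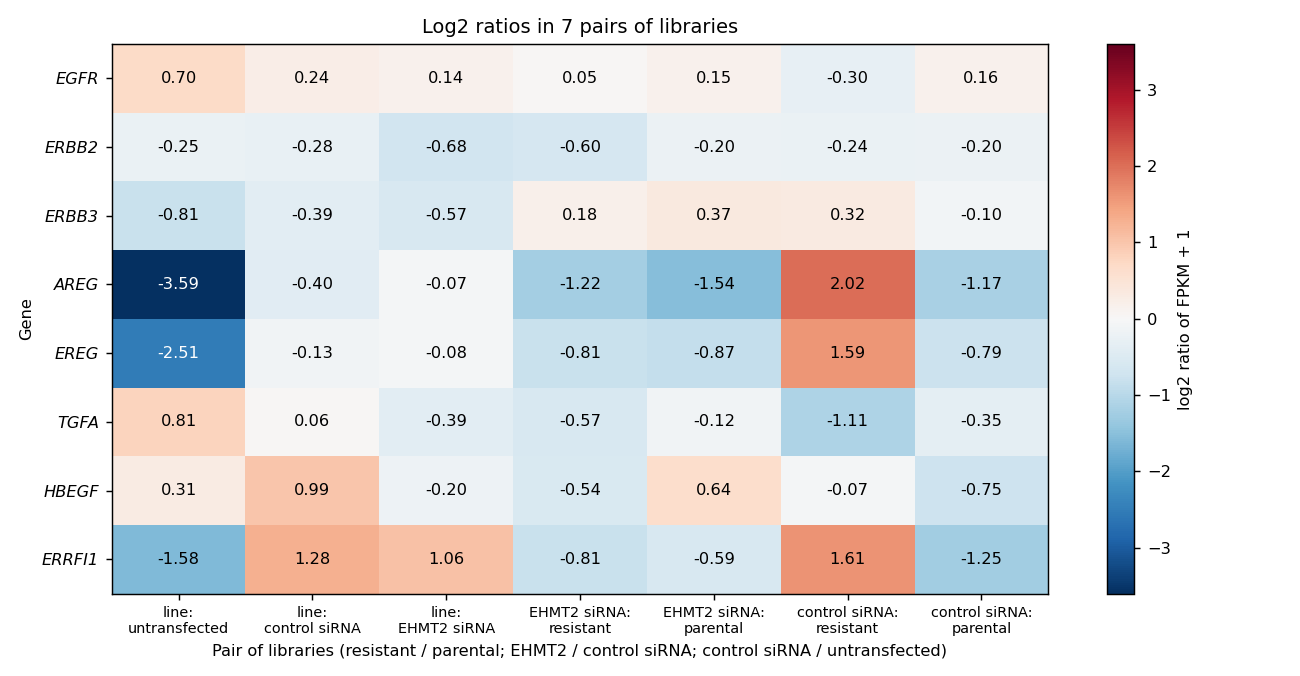
Log2 ratios of FPKM + 1 for each gene (rows) in 7 pairs of libraries (columns), red for higher and blue for lower in the first-named library of the pair. AREG and EREG were far lower in untransfected resistant cells (−3.59 and −2.51) and lower with EHMT2 siRNA in both lines, and ERRFI1 changed sign between the untransfected line pair (−1.58) and both siRNA line pairs.

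The 11521 genes, all 8 members among them, were then fitted together by limma, with line and treatment as additive terms on the log2 scale. It uses the disagreement between lines and treatments as its error, drawn towards a variance pooled over all genes. Its p-values measure only the spread among these libraries. Over all 6 libraries 0 members were called for the line, for EHMT2 siRNA against control siRNA or for control siRNA against untransfected cells, at a Benjamini-Hochberg adjusted p of 0.05. For the line and for EHMT2 siRNA 0% of all genes were called too, with 5.23% and 26.6% at an unadjusted p under 0.05, and for control siRNA 0.0434% were called and 7.06% had such an unadjusted p. The siRNA target EHMT2 was itself not called, with an EHMT2 siRNA coefficient of −1.93 (SE 0.36, adjusted p = 0.0636, limma). At an unadjusted p under 0.05 the members were ERBB2 and ERBB3 for the line, and none for EHMT2 siRNA or control siRNA. ERBB3 had a line coefficient of −0.59 (SE 0.16, adjusted p = 0.826, limma) and ERBB2 of −0.40 (SE 0.16, adjusted p = 0.941, limma). AREG had an EHMT2 siRNA coefficient of −1.38 (SE 0.85, adjusted p = 0.347, limma), which was −0.42 without the parental and −2.34 without the resistant EHMT2 siRNA library. It was −2.103 without the parental and −0.66 without the resistant control siRNA library.

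Among the 4 siRNA libraries alone, which were listed in the same row order, the same model had a smaller error. For EHMT2 siRNA, 3 of the 8 members fell and 0 rose, where 18.7% of all genes fell and 42.5% were called in either direction, so the share called was near that of all genes. AREG fell by 1.38 (SE 0.13, adjusted p = 0.000981, limma, adjusted over all genes) and EREG fell by 0.84 (SE 0.11, adjusted p = 0.00226, limma). ERRFI1 fell by 0.70 (SE 0.12, adjusted p = 0.00574, limma). ERBB2 had a coefficient of −0.40 (SE 0.14, adjusted p = 0.0633, limma), and EGFR one of 0.10 (SE 0.12, adjusted p = 0.522, limma). For the line, ERRFI1 was the 1 member called, where 8.96% of all genes were, and it rose by 1.17 in resistant cells (SE 0.12, adjusted p = 0.00829, limma). AREG and EREG had line coefficients of −0.23 (SE 0.13) and −0.11 (SE 0.11) there, against −1.35 (SE 0.69) and −0.91 (SE 0.50) over 6 libraries, and passed in neither fit. The 4-library fit has 1 residual degree of freedom, which reflects how alike the 2 lines were in their knockdown ratios. Its calls therefore rest largely on the variance that limma pools over all genes, and less on the spread of each gene itself.

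**Figure D4:**
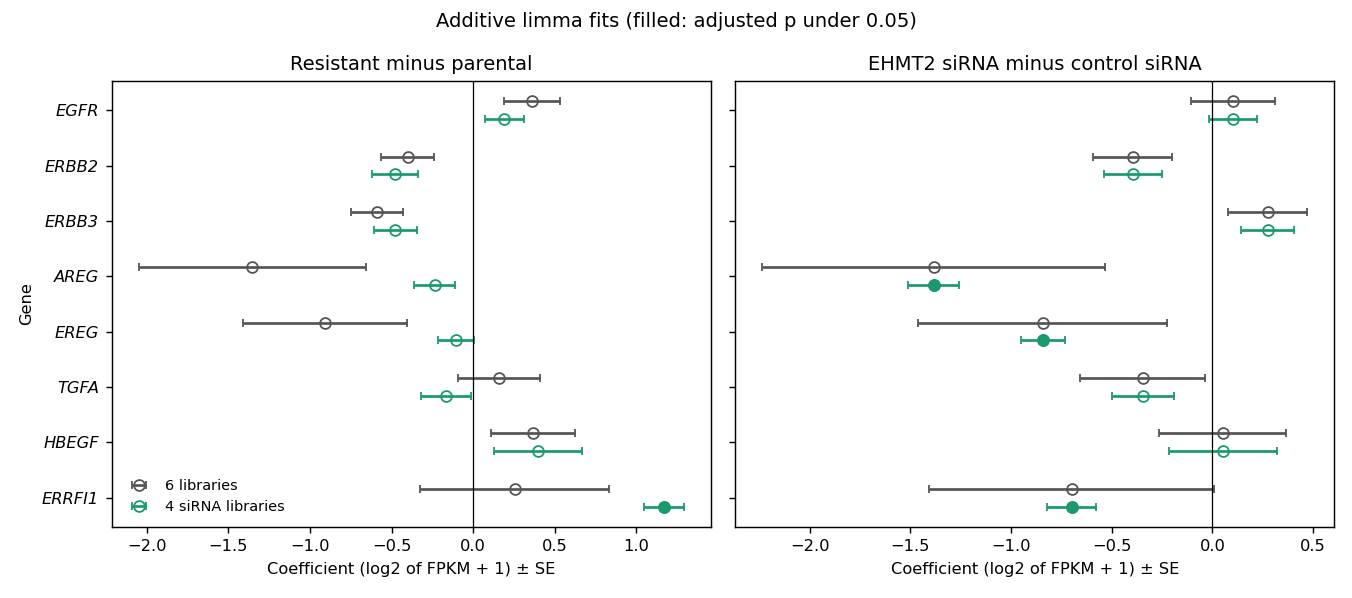
Coefficients of the additive limma fits for resistant minus parental cells (left) and EHMT2 siRNA minus control siRNA (right), on the log2 scale with SE bars; grey for 6 libraries, green for the 4 siRNA libraries, filled where the adjusted p is under 0.05. AREG, EREG and ERRFI1 are filled on the right and ERRFI1 on the left, each in the 4-library fit only.

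The other genes of the pathway were read from 5 lists. Of 8 further receptors and ligands, 2 reached 1 FPKM in any library: BTC, and EGF, which was at 0.977 in parental and 1.27 in resistant cells with EHMT2 siRNA and at most 0.216 elsewhere. ERBB4, EPGN and NRG3 were listed at 0 throughout, and NRG1, NRG2 and NRG4 stayed below 1. NRG1 and NRG2 encode neuregulins that bind ERBB3.

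Genes of ligand release split. In the 4-library fit for EHMT2 siRNA, 4 of 8 measured members fell and 2 rose (adjusted over all genes, limma, where 18.7% of all genes fell and 23.8% rose). ADAM17, the main sheddase of AREG, EREG and TGFA, lay between 11.6 and 15.3 FPKM in all libraries, and ADAM10 between 12.6 and 14.3. ADAM19, a metalloprotease, fell by 2.19 (SE 0.14, adjusted p = 0.00075, limma), from 68.3 to 12.0 FPKM in parental and from 69.6 to 17.0 in resistant cells. RHBDF1, the gene of iRhom1, which carries ADAM17 to the cell surface, rose by 1.52 (SE 0.18, adjusted p = 0.0019, limma). RHBDF2, of iRhom2, rose by 0.63. It was the 1 of these 8 called for the line, where 8.96% of all genes were, with a coefficient of −0.70 (SE 0.12, adjusted p = 0.0238, limma).

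Of 25 adapters and relay kinases, 0 were called for the line in the 4-library limma fit, where 8.96% of all genes were. With EHMT2 siRNA 5 of the 25 rose and 6 fell in that fit, where 23.8% of all genes rose and 18.7% fell. HRAS, a RAS isoform, rose by 0.93 and MAPK3, the gene of ERK1, fell by 0.89. PIK3R2, a regulatory subunit of PI3-kinase, shares 87.2% of its exonic bases with AC007192.1, and although it fell by 3.77, that value is uncertain. Genes of receptor downregulation and trafficking had 3 that rose and 6 that fell of 19, against the same shares of all genes. Both lists were thus called about as often as all genes (42.5%). EPN1, an endocytic adapter, fell by 1.72, and SH3KBP1, which links CBL to endocytosis, fell by 0.82. The median ratio of this trafficking list stayed near that of all genes in the knockdown pairs, at −0.05 in resistant and 0.09 in parental cells against 0.06 and 0.09. For the line, SH3KBP1 was the 1 of these 19 called in the 4-library fit, where 8.96% of all genes were. Its line coefficient was 0.49 (SE 0.12, adjusted p = 0.0494, limma).

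The ERK feedback and output genes were read beside ERRFI1, which ERK signalling also induces. This list was chosen with earlier results of these data known. Its counts beside the shares of all genes, here and below, are therefore a description and not a test. All 18 were higher in resistant than parental cells with control siRNA, where 48.1% of all genes were, with a median ratio of 0.62 against −0.02 for all genes. With EHMT2 siRNA 15 of 18 were higher (median 0.45 against −0.05), and without transfection 7 of 18 were (median −0.35 against 0.07). In the 4-library limma fit 8 of 18 rose in resistant cells and 0 fell, where 4.49% of all genes rose. DUSP6, an ERK phosphatase, was at 199.5, 61.7 and 29.1 FPKM in untransfected, control siRNA and EHMT2 siRNA parental cells and at 113, 205 and 108 in resistant cells. Like ERRFI1 it was higher in the untransfected parental library than in the resistant one, and lower in both siRNA libraries of parental cells. Its line coefficient was 1.79 (SE 0.11, adjusted p = 0.00193, limma), but 40.5% of its exonic bases are shared with AC024909.2. DUSP5, a nuclear ERK phosphatase, rose by 1.45 in the same fit, and EGR1, an immediate early transcription factor, by 1.87. EGR1 had a ratio of −0.30 without transfection, and DUSP5 one of −1.61. The level of EGR1 was 243 and 197 FPKM in untransfected parental and resistant cells and at most 78.0 with siRNA.

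Being lower in untransfected and higher in both kinds of siRNA-treated resistant cells, the pattern of ERRFI1, was seen in 10 of the 18 genes and in 19.1% of 11226 genes tested in all 3 pairs. The exceptions include FOSL1, an AP-1 subunit, with 1.55 without transfection and 1.37 with control siRNA, and DUSP4, with 0.80 and 0.78. With EHMT2 siRNA 9 of the 18 genes fell and 5 rose in the 4-library limma fit, where 18.7% of all genes fell and 23.8% rose. PHLDA1, a pleckstrin-homology protein induced by ERK, fell by 1.42 (SE 0.13, adjusted p = 0.001, limma), DUSP5 by 1.09 and DUSP6 by 0.99. CCND1 (cyclin D1) rose by 0.66, and EPHA2, an ephrin receptor, rose by 0.87. In the fit over 6 libraries 0 members of the 5 lists passed for any contrast.

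**Figure D5:**
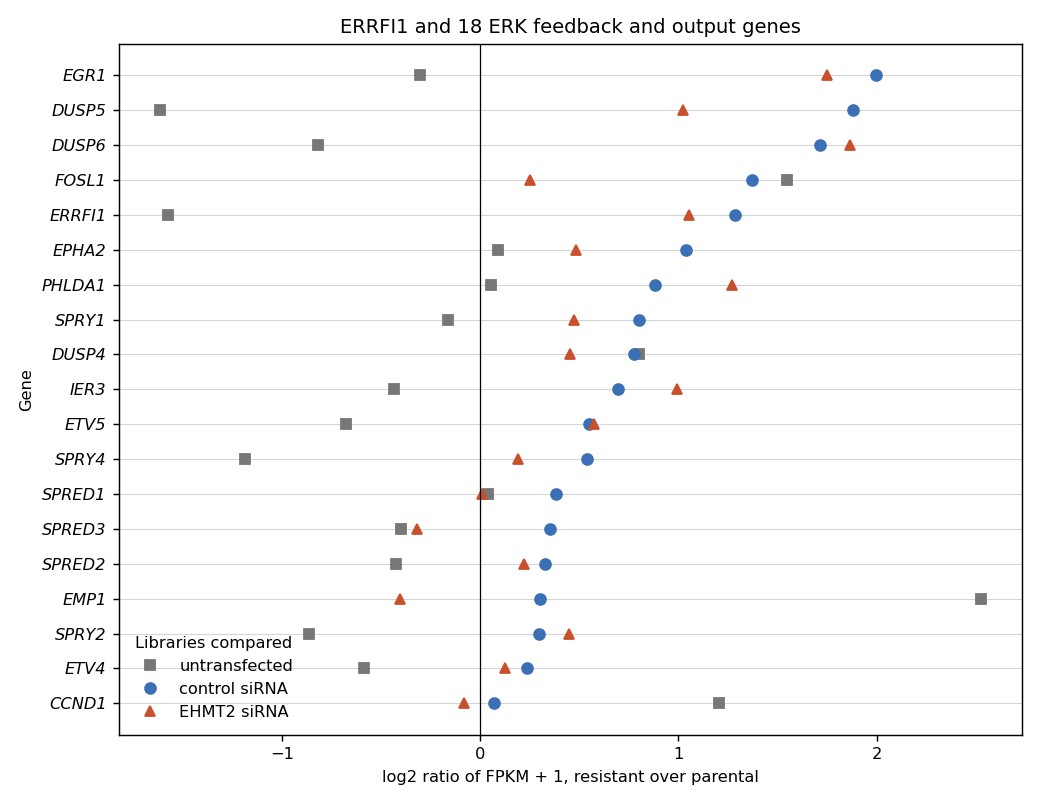
Log2 ratio of resistant to parental cells (horizontal axis) for ERRFI1 and 18 ERK feedback and output genes (rows), with grey squares for untransfected, blue circles for control siRNA and orange triangles for EHMT2 siRNA cells. All blue circles lie above 0, while 11 of the 18 listed genes and ERRFI1 have a grey square below 0.

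Genes most like the members in their course over the 6 libraries were found by the root mean square difference of log2 values, each centred on its own mean, among 9379 genes with 5 FPKM or more in at least 1 library. For AREG they were TESC, a calcium-binding protein (0.28), and CKMT1B, a mitochondrial creatine kinase (0.33). EREG ranked 5 for AREG (0.41). For EREG they were ARMC4 (0.10) and CKMT1A (0.15), and AREG ranked 52, since its span was wider. In untransfected parental cells ARMC4, CKMT1A and CKMT1B were at 8.74, 6.77 and 9.13 FPKM. In untransfected resistant cells they were at 0.467, 0.484 and 0.544, so the added 1 narrowed their spans. CKMT1A and CKMT1B are almost the same in sequence, so the values of both are uncertain. For ERRFI1 they were NOP53, a ribosome biogenesis factor (0.18), and RPS3A, a ribosomal protein (0.20), whose FPKM was 1533, 722 and 604 in parental and 543, 1492 and 840 in resistant cells. TGFA was most like E2F8 and ARHGEF4 (both 0.12), ERBB3 most like CSNK1E (0.11) and ECSIT (0.13), and HBEGF most like CRIPT and CDKN2B (both 0.13). EGFR spanned 0.70 and was not matched, because only members that spanned at least 1 were.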

How the data were processed

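The 6 HCT116 libraries, 1 per group, were, per the labels' protocols, prepared with the TruSeq RNA v2 kit. FastQC 0.12.1, HISAT2 2.2.1, cutadapt 4.9 and StringTie 2.1.1 appear in the submitters' processing notes beside the build GRCh38, with no role or order. No source used here states the annotation, the strand setting or a filter. The authors deposited FPKM values, with 1 table of 19957 rows per library. Low values showed no steps of whole reads (at most 2.12% of low genes shared a ratio within 0.1%), so depth and counting error are unknown. For symbols with several rows the row of highest mean was kept. Ratios are log2 of FPKM + 1. The limma 3.58.1 fits in R 4.3.3 had line and treatment, a mean-variance trend and Benjamini-Hochberg adjustment over all genes. The 6-library fit was also run on simulated data. Their noise was independent between genes and libraries, so that run could not show the effect of a shift shared by a whole library. Alternatives changed the pseudocount, filter, scaling, fold threshold and libraries. Coordinates and shared exonic bases come from GENCODE 29. The members and lists were chosen with earlier results of these data known. Named are all members, EHMT2, every further family receptor and ligand, list members that passed a limma test, and the 2 highest and 2 lowest of each list by the smaller of both knockdown ratios or of the untransfected and control siRNA line ratios. Where a member spanned 1 on the log2 scale, the 2 genes most like it are named. ADAM17 is named outside this rule, for its role, and was chosen after its values were seen. Some genes that the rule would name, and the genes most like ERBB2, are not reported here.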

Additional observations from a re-analysis of the deposited data

Results flagged for a closer look

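These differences between log2 ratios had opposite signs in both groups compared, with each ratio at least 0.5 in size, and none of them was tested, since every ratio comes from 1 library on each side. ERRFI1 differed by −2.86 between the untransfected line pair (−1.58) and the control siRNA line pair (1.28), and by −2.63 between the untransfected pair and the EHMT2 siRNA pair (1.06). In the comparison of control siRNA with untransfected cells, resistant cells minus parental cells gave 3.20 for AREG (2.02 and −1.17), 2.38 for EREG (1.59 and −0.79) and 2.86 for ERRFI1 (1.61 and −1.25). The ERRFI1 value of 2.86 is the same 4 libraries read in the other order, so it is not a separate result. For HBEGF the EHMT2 siRNA ratio in resistant minus that in parental cells was −1.19 (−0.54 and 0.64), with FPKM between 2.88 and 6.70 in those libraries.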

How the results depend on the processing

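No pairing by replicate was possible because each group held 1 library, all numbered replicate 1. The additive limma fits compared the lines within treatments and the treatments within lines. Of 448 alternative values of the members' pair ratios, 419 stayed on their side of the fold threshold, 17 newly passed it and 12 no longer did. No ratio past the threshold changed sign. Of those below it, HBEGF in the resistant transfection pair went from −0.07 to 0.014 after quantile normalisation, and ERBB3 in the parental transfection pair from −0.10 to 0.07 after rescaling. In the limma fits, members called were 0 for each contrast over 6 libraries, and 1 for the line and 3 for EHMT2 siRNA in the 4 siRNA libraries. Leaving out 1 library at a time gave 0 to 1 for the line, 0 to 3 for EHMT2 siRNA and 0 to 4 for control siRNA, and the calls for the line (1) and EHMT2 siRNA (3) came without either untransfected library, those for control siRNA without the parental (4) or the resistant one (3). Among all genes the line had 0 called, 1032 in the 4 siRNA libraries and 0 to 1034 with 1 library left out (1034 without parental and 1018 without resistant untransfected cells). EHMT2 siRNA had 0 called, 263 with a filter at 5 FPKM, 4902 in the 4 siRNA libraries and 0 to 4904 with 1 library left out (4904 without parental and 4903 without resistant untransfected cells). Control siRNA had 5 called, 3 at a pseudocount of 0.1 and 3 to 2059 with 1 library left out (2059 without parental and 413 without resistant untransfected cells, where its coefficient rests on 1 untransfected library). The cause of these differences was not tested.

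Members at least 2-fold apart in the untransfected line pair numbered 3, with 4 after rescaling, 6 at 1.5-fold and 2 at 4-fold. In the control siRNA line pair there was 1, with 2 at a pseudocount of 0.1, after rescaling to the same sum, after quantile normalisation and at 1.5-fold, and 0 at 4-fold. In the EHMT2 siRNA line pair there was 1, with 0 after quantile normalisation, 2 at 1.5-fold and 0 at 4-fold. Each knockdown pair had 1, with 4 at 1.5-fold and 0 at 4-fold. The resistant transfection pair had 4, and 1 at 4-fold. The parental transfection pair had 2, with 1 after rescaling, 4 at 1.5-fold and 0 at 4-fold. The number of all genes at least 2-fold apart went, at a pseudocount of 0.1, from 868 to 1351 in the untransfected line pair, from 296 to 574 and from 369 to 836 in the control and EHMT2 siRNA line pairs, from 1088 to 1738 and from 1313 to 2061 in the resistant and parental knockdown pairs, and from 954 to 1494 and from 353 to 709 in the resistant and parental transfection pairs. Rescaling moved the split of higher and lower genes from 408 and 460 to 723 and 307 in the untransfected line pair, from 894 and 419 to 1154 and 301 in the parental knockdown pair, and from 111 and 242 to 241 and 158 in the parental transfection pair.

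Some member coefficients changed sign. The line coefficient of TGFA was −0.17 in the 4 siRNA libraries and −0.17 to 0.43 with 1 library left out, and that of ERRFI1 −0.26 to 1.17, with −0.26 without either control siRNA library and −0.15 without either EHMT2 siRNA library. The EHMT2 siRNA coefficient of HBEGF was −0.018 median-centred, −0.021 quantile normalised and −0.42 to 0.52 with 1 library left out (−0.37 without parental EHMT2 siRNA). With 1 library left out that coefficient ran from −2.34 to −0.42 for AREG and −1.46 to −0.22 for EREG (the first without resistant and the second without parental EHMT2 siRNA), and from −0.062 to 0.26 for EGFR, −0.76 to 0.068 for TGFA and −1.47 to 0.073 for ERRFI1. The control siRNA coefficient ran from −1.25 to 2.105 for AREG, −0.80 to 1.61 for EREG, −1.19 to 1.55 for ERRFI1, −0.32 to 0.18 for EGFR, −0.056 to 0.28 for ERBB3 and −0.88 to 0.056 for HBEGF, with −0.29, −0.18, −0.59, 0.018 and −0.042 for the first 5 without resistant control siRNA. The cause was not tested. Depth in reads is unknown, so counting error could not be given.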
